A study of Homo sapiens with 6 samples.

Results

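A segment of chromosome 1 from 39 to 43 Mb (GRCh38, hg38), around the paralogous ligand genes BMP8A and BMP8B, held 21 peaks of the 4 deposited peak lists, of 3606 peaks in all. Its members were every listed peak with a base between 39000000 and 43000000: 1 of 513 peaks of EGR1 in DMSO, 3 of 515 of EGR1 in OPA1, 8 of 891 of TET2 in DMSO and 9 of 1687 of TET2 in OPA1. The segment was singled out because its peaks were many and rich in tags. Peak numbers, tags, lengths, folds and the recurrence of positions were therefore used in choosing it, and they are given below as a description, without a test.

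The lists came from chromatin immunoprecipitation with sequencing in THP-1, an established human line of acute myeloid leukaemia with monocytic features. The cells spent 48 hours either in DMSO (solvent alone) or in OPA1, the submitters' name for the added compound and not the gene of that symbol. Each treatment had 1 EGR1 library, 1 TET2 library and 1 input library (chromatin without antibody), so nothing measures the spread between replicates, and differences between treatments have no replicate check. Each list was called on 1 ChIP library against the input of its own treatment, and the ChIP libraries held 19779007 to 19900311 tags after removal of repeated positions. The lists hold no expression values, so the label of the cells could not be checked against markers.

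Bone morphogenetic proteins are secreted ligands of the TGF-beta superfamily. They bring together type I and type II serine/threonine kinase receptors, which phosphorylate receptor SMADs that enter the nucleus with SMAD4 and switch on genes such as those of the ID family. BMP8A and BMP8B are neighbouring copies of 1 such ligand gene, known from work on germ cells and, for BMP8B, on heat production in brown fat. EGR1 is a zinc-finger factor that binds GC-rich DNA, and TET2 is a dioxygenase that oxidises 5-methylcytosine in myeloid cells.

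The 250 bases before the start of each gene are shown because they are near copies of each other and carry the EGR1 core. Neither window held a peak. They are the RefSeq sequences of GRCh38.p14, written 5′ to 3′ on the gene's own strand. BMP8A lies on the plus strand (window chr1:39491386-39491635) and BMP8B on the minus strand (window chr1:39788866-39789115). Capitals mark the match to GCGNGGGCG, the EGR1 core, searched on both strands.
BMP8A: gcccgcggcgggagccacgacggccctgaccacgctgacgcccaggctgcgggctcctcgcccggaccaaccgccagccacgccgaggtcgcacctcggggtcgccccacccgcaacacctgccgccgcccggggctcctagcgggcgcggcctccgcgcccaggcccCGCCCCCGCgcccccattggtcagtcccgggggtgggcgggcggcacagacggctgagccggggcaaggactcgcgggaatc
BMP8B: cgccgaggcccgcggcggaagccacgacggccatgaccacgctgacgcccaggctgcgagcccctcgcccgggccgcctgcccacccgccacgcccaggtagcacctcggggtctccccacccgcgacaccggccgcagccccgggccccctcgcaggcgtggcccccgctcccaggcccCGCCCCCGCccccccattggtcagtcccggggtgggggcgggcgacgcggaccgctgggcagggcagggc

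In a global alignment of these windows, 208 of 263 columns were identical (79.1%). Each window held 1 match, which began 82 bases before the start of BMP8A and 70 bases before the start of BMP8B. The GC content was 79.6% for BMP8A and 81.6% for BMP8B. Of 35116 RefSeq promoter windows of 300 bases (250 before and 50 after a start), 3313 (9.43%) held the core, as did 14 of the 86 windows in the segment (16.3%). None of these 86 windows was touched by a peak of any list. The share of all 35116 windows touched by a peak was not computed, so nothing is read from that absence. A match describes these letters, and no binding there follows from it.

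BMP8A carried a peak inside the gene in 3 lists, those of EGR1 OPA1 and of TET2 in either treatment. The gene runs from 39491636 to 39529869, and whether the site is exonic or intronic was not analysed, since the gene table used gives no exons. In EGR1 OPA1 the peak lay at 39509227 to 39509873 with 38 tags (exact Poisson 95% interval 26.9 to 52.2, counting error only). In TET2 DMSO it lay at 39509546 to 39509979 with 42 tags (30.3 to 56.8). In TET2 OPA1 it lay at 39509571 to 39509990 with 56 tags (42.3 to 72.7). These 3 tag intervals overlap. The nearest EGR1 DMSO peak was 1844811 bp from the gene.

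Per length, the BMP8A site differed more between the lists than in raw tags. Its density was 5.87 tags per 100 bp (4.16 to 8.06) in EGR1 OPA1, and for TET2 9.68 in DMSO (6.97 to 13.1) and 13.3 in OPA1 (10.1 to 17.3). The interval of TET2 OPA1 lies above that of EGR1 OPA1, while the intervals of the TET2 libraries overlap. These intervals take the called length as fixed, 647 bp in EGR1 OPA1 and 420 bp in TET2 OPA1. They leave out the uncertainty of the called ends, and the tag intervals of these libraries overlap. In TET2 OPA1 the BMP8A peak was the densest of the whole list (rank 1 of 1687). The TET2 summits, the positions of the highest pileup, were 9 bp apart, and the EGR1 OPA1 summit lay 142 bp from that of TET2 OPA1 and 151 bp from that of TET2 DMSO. The peak caller's fold over local background was 5.65 in EGR1 OPA1, and for TET2 5.59 in DMSO and 9.80 in OPA1, and its score (the caller's p as a negative log10, multiplied by 10) was 69.5, 79.4 and 204.6. Every fold, score and false discovery rate was assigned to 1 peak by the authors' caller. The false discovery rate of the peak was 16.1% in EGR1 OPA1, and for TET2 4.29% in DMSO and 0% in OPA1, so that a limit of 5% leaves the TET2 lists alone. The peak centres were 17914 to 18144 bp downstream of the gene's start.

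BMP8B itself, from 39757182 to 39788865, held no peak in any of the 4 lists, nor did its flanks of 5000 bp. The nearest site in the same 3 lists lay beyond the gene's start, with peak edges 10759 to 11570 bp from the gene and centres 11539 to 11931 bp upstream of the start. It held 58 tags (44.04 to 74.98) in EGR1 OPA1 at 39800435 to 39801157. It held 75 tags (58.99 to 94.0) in TET2 DMSO at 39800280 to 39801059, and 146 (123 to 172) in TET2 OPA1 at 39799624 to 39801185. The TET2 OPA1 interval lies above the other two, but that peak was also the longest, 1562 bp against 780 bp in TET2 DMSO and 723 bp in EGR1 OPA1. Per 100 bp the densities were 8.02 (6.09 to 10.4), 9.62 (7.56 to 12.1) and 9.35 (7.89 to 10.99), and all 3 intervals overlap. Summits were 10 to 94 bp apart. The site falls in LOC130932201, a long non-coding RNA gene, and beside LINC02811, another, and its fold was 5.94 in EGR1 OPA1, and for TET2 7 in DMSO and 10.04 in OPA1. The false discovery rate was 16.7% in EGR1 OPA1 and 0% in both TET2 lists. Here too a limit of 5% leaves the TET2 lists alone, as it does all over chromosome 1. The nearest EGR1 DMSO peak was 1965723 bp from BMP8B. The sites at the paralogs thus do not sit at matching places, 1 being downstream of its gene's start and 1 upstream. The placement of tags that fit both copies is not stated in the labels or headers.

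**Figure D1:**
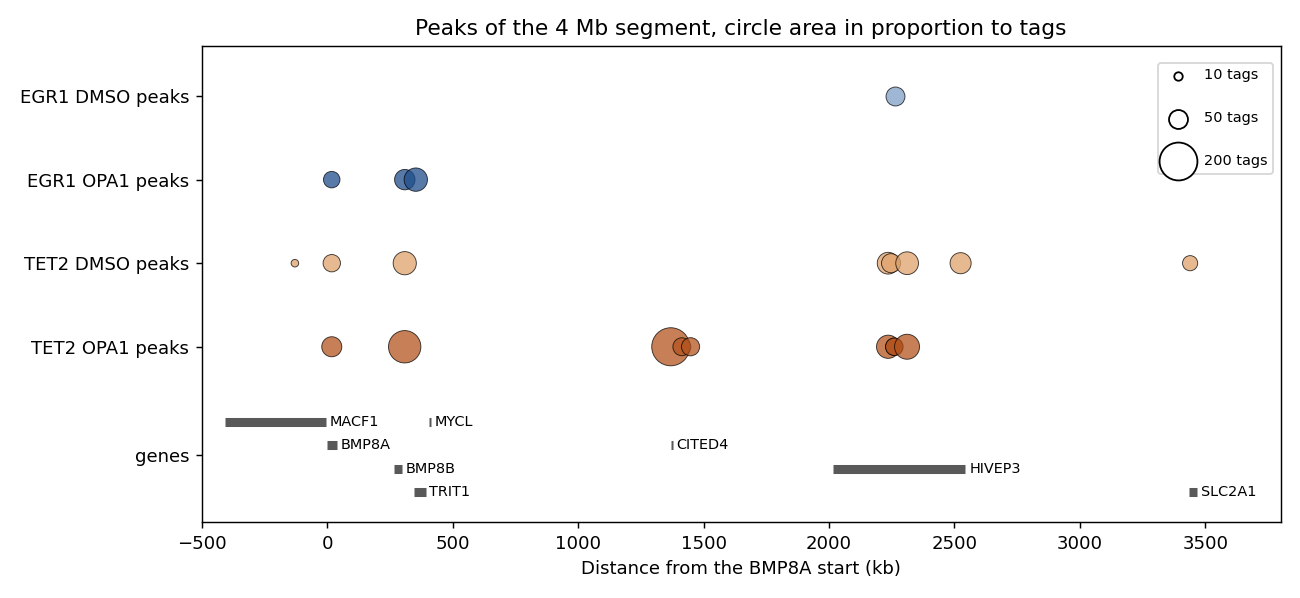
Positions of the 21 segment peaks by list (rows) against distance from the BMP8A start in kb, with circle area in proportion to tags and bars for 8 genes. Peaks gather at BMP8A to TRIT1, beside CITED4 and in HIVEP3, and the largest circle is the 202-tag TET2 OPA1 peak at CITED4.

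Peaks fell into a few groups along the segment with long empty stretches between them. The first group ran from BMP8A to TRIT1, a tRNA-modifying enzyme gene, over 336123 bp with 7 peaks. Its last peak was an EGR1 OPA1 peak in TRIT1 at 39844142 to 39845349, with 76 tags (59.9 to 95.1) over 1208 bp and a fold of 3.51. That was the lowest fold of the EGR1 OPA1 list, and the peak was also its longest, with the second most tags. No peak lay in or within 5000 bp of MYCL, the MYC-family factor gene next to TRIT1. The stretch that followed, 39845350 to 40860288, was free of peaks in all lists over 1014939 bp.

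The group beside CITED4, which encodes a CBP/p300-binding coactivator, was listed in TET2 OPA1 alone. The peak at 40860289 to 40861892 overlapped the gene (40861054 to 40862363) and held 202 tags (175 to 232), the most of any peak in the list. Its density was 12.6 tags per 100 bp (10.9 to 14.5), the second highest of the list. Its fold was only 4.69 and its score 56.7, rank 956 of 1687. A pair of peaks with 45 and 46 tags followed at 40905049 to 40905672 and 40939696 to 40940305. They lay 42997 bp from CITED4 and 39696 bp from CTPS1, the CTP synthase gene, which were their nearest protein-coding genes.

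HIVEP3, a gene of a large zinc-finger protein, carried 9 of the 21 peaks, 4 in each TET2 list and the single EGR1 DMSO peak. At 529570 bp it is also the longest of the 53 protein-coding genes of the segment. The TET2 DMSO peak at 42015957 was centred 19467 bp downstream of the gene's start, and all the others 232684 to 308412 bp downstream. TET2 peaks in the gene summed to 251 tags over 3404 bp in DMSO and 246 tags over 3082 bp in OPA1. A position listed in both treatments held 66 tags (51.0 to 84.0) in DMSO at 41727084 to 41727990 and 75 (58.99 to 94.0) in OPA1 at 41727098 to 41727946, with summits 8 bp apart. Another held 72 tags (56.3 to 90.7) in DMSO at 41802818 to 41803683 and 87 (69.7 to 107.3) in OPA1 at 41802366 to 41803648, with summits 54 bp apart. Tag intervals overlapped between treatments at both. The false discovery rate was 5.71% in DMSO and 1.73% in OPA1 at the first position, and 0% and 4.16% at the other.

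The other HIVEP3 peaks were each listed once. TET2 DMSO had 51 tags at 41738901 to 41739510 and 62 at 42015957 to 42016977, the latter with the lowest fold of that list, 4.08. Their scores were 51.4 and 50.8, ranks 800 and 836 of 891, and their false discovery rates 9.25% and 10.04%. TET2 OPA1 had 41 tags at 41751311 to 41751748 and 43 at 41751926 to 41752437, only 177 bp apart, with rates of 2.14% and 3.56%. The EGR1 DMSO peak at 41754588 to 41755396 held 50 tags (37.1 to 65.9) over 809 bp, began 2150 bp after the second of these and was the longest of its list. Its fold of 4.77 was the lowest of that list, and its false discovery rate was 18.1%. Peaks listed once are not shown to be absent from the other libraries, since tags outside called peaks were not analysed here.

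Outside these groups the segment held 2 peaks, both of TET2 DMSO. SLC2A1, the gene of the glucose transporter GLUT1, had 32 tags (21.9 to 45.2) over 451 bp at 42931167 to 42931617. MACF1, a cytoskeletal linker gene, had 8 tags (3.45 to 15.8) over 174 bp at 39362712 to 39362885, with a fold of 10.1. The MACF1 peak was the exception of the segment: the other 20 peaks held 32 to 202 tags over 420 to 1604 bp.

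Compared with the rest of chromosome 1 in the same list, segment peaks were long, rich in tags and low in fold. The single EGR1 DMSO peak held 50 tags over 809 bp, where the 56 other peaks of the chromosome held a median of 9 tags (8 to 16) over 192.5 bp. For EGR1 OPA1 the medians were 58 tags over 723 bp in the segment and 9.5 tags (8 to 22) over 201 bp in the other 38 peaks. All 3 EGR1 OPA1 segment peaks exceeded every other chromosome 1 peak of their list in tags and in length. For TET2 DMSO the medians were 56.5 tags over 695 bp in the segment and 10 tags (8 to 35) over 198 bp in the other 86. There 6 of the 8 segment peaks held more tags than any other chromosome 1 peak.

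TET2 OPA1 differed less from the rest of the chromosome in length. Its 9 segment peaks had a median of 56 tags (41 to 202) over 624 bp, against 14 tags (8 to 124) over 284 bp in the other 181, and 2 of the 9 held more tags than any of those. Median fold was lower in the segment in every list: 4.77 against 11.1 in EGR1 DMSO, 5.65 against 11.4 in EGR1 OPA1, and for TET2 6.33 against 11.3 in DMSO and 5.71 against 10.4 in OPA1. All 21 segment peaks lay below the median fold of the other chromosome 1 peaks of their list. Scores differed less, with segment medians of 55.0, 69.5, 59.1 and 57.7 against 54.9, 52.2, 57.0 and 59.3 in the same order.

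**Figure D2:**
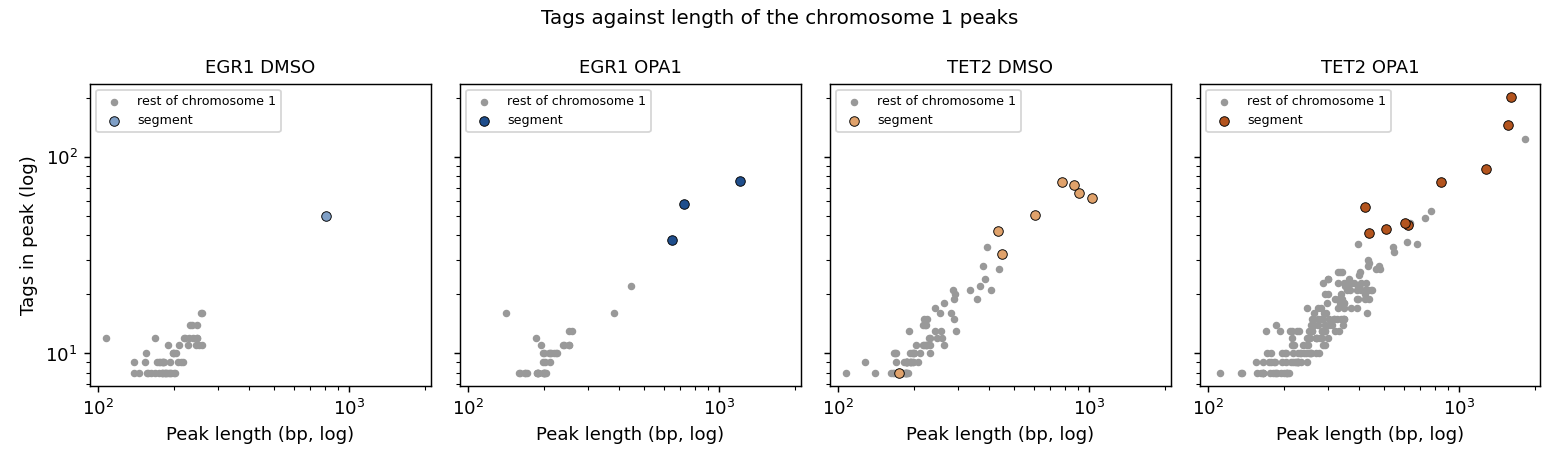
Tags in a peak against peak length in bp, both on log axes, for chromosome 1 peaks of each list; coloured points are segment peaks and grey points the rest of the chromosome. Segment peaks sit at the upper right of each panel, except the 8-tag MACF1 peak in TET2 DMSO.

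Tag density was raised less than tag number. The segment median was 6.18 tags per 100 bp against 4.97 in the rest of the chromosome in EGR1 DMSO, a ratio of 1.24. It was 6.29 against 4.55 (ratio 1.38) in EGR1 OPA1, and for TET2 7.80 against 4.91 (1.59) in DMSO and 8.83 against 5 (1.77) in OPA1. In TET2 OPA1, 4 of the 9 segment peaks were denser than any other chromosome 1 peak, and in TET2 DMSO 2 of 8. In neither EGR1 list did a segment peak exceed the densest peak of the rest, 11.2 tags per 100 bp in DMSO and 11.3 in OPA1.

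The density divided by the fold gives a value that grows with the local background against which the caller scored a peak. This quotient is approximate, since the fold refers to the summit and the density to the whole peak. Its segment median was 1.296 in EGR1 DMSO and 1.35 in EGR1 OPA1, and with TET2 it was 1.36 in DMSO and 1.4 in OPA1. In the rest of chromosome 1 it was 0.427, 0.412, 0.426 and 0.457, so that the segment was 3.04, 3.28, 3.19 and 3.07 times as high. The 21 segment quotients all exceeded the median of the rest in their list. The lowest was 0.453 for MACF1 and the highest 2.69 for CITED4. Within the list of TET2 OPA1, the BMP8A site had 1.36 and the site beyond BMP8B 0.931, the lowest of its 9. Segment medians were raised with both antibodies and in both treatments. The quotient is made of tags, length and fold, however, which were used in choosing the segment. In EGR1 DMSO it rests on 1 peak, whose 1.296 was below the highest quotient of the rest of chromosome 1, 1.89. The inputs' own tags over the segment were not analysed here, so the part of local copy number and the part of binding in these tag numbers was not tested.

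**Figure D3:**
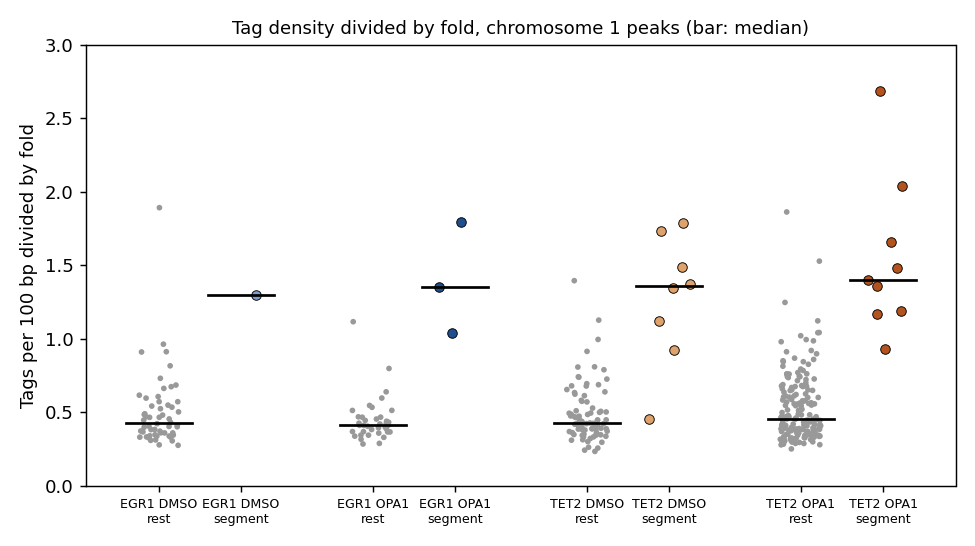
Tags per 100 bp divided by the caller's fold for each chromosome 1 peak, by list, with grey points for the rest of the chromosome, coloured points for the segment and bars for medians. Segment medians lie between 1.296 and 1.4 and those of the rest between 0.412 and 0.457.

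By number, the segment made up 1.75% (Wilson 95% interval 0.310 to 9.29%) of the chromosome 1 peaks in EGR1 DMSO and 7.32% (2.52 to 19.4%) in EGR1 OPA1. It made up 8.51% (4.38 to 15.9%) in TET2 DMSO and 4.74% (2.51 to 8.76%) in TET2 OPA1, where its length is 1.61% of the chromosome up to the last annotated gene. Peaks per Mb were 0.25 against 0.229 in the rest, 0.75 against 0.155, 2 against 0.351 and 2.25 against 0.739 in the same order. By tags the share was larger, at 8.26%, 31.0%, 28.4% and 19.9% of all tags in chromosome 1 peaks. Each share rests on 1 to 9 segment peaks. With folds of at least 8 alone, the segment held 0, 0, 1 and 2 peaks in these lists, and between 40 and 42 Mb EGR1 OPA1 had 0. The 1 of TET2 DMSO was the MACF1 peak with 8 tags, and the 2 of TET2 OPA1 were at BMP8A and beyond BMP8B. The median fold of the other chromosome 1 peaks lay above that limit in every list.

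Among 63 consecutive windows of chromosome 1, each of 4 Mb but for the ends, the segment had the most tags in peaks in all 4 lists. In EGR1 DMSO its 50 tags were close to the 48 of the next window. In the other 3 lists (EGR1 OPA1, then TET2 DMSO and OPA1) it held 172, 408 and 741 tags. By number of peaks it led alone in TET2 DMSO (8), tied for first with other windows in EGR1 OPA1 (3) and had rank 2 in TET2 OPA1, with 9 against 13 at 155 to 159 Mb. In EGR1 DMSO its 1 peak gave rank 16. Summed over lists of unequal size it held 21 peaks, followed by 155 to 159 Mb with 19 and by 203 to 207 Mb and 223 to 227 Mb with 16 each. Those 3 windows held 402, 164 and 258 tags, against 1371 in the segment.

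**Figure D4:**
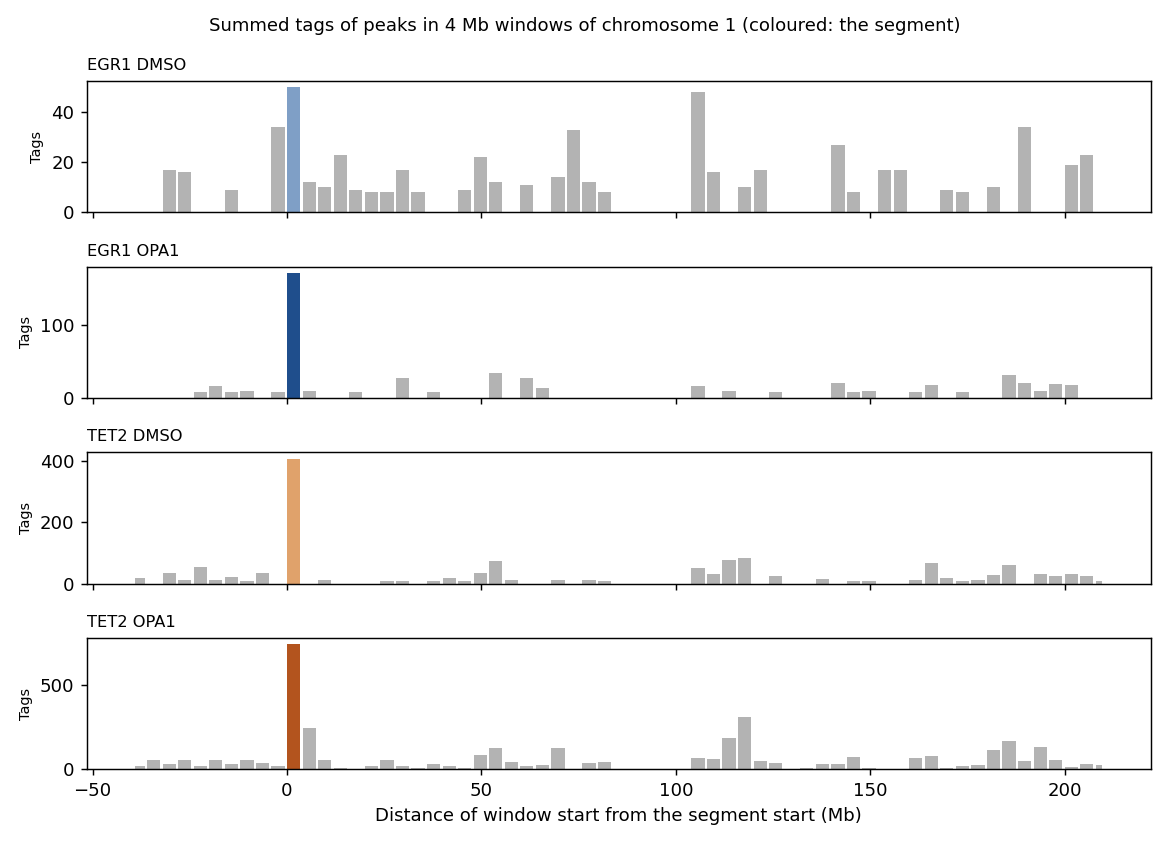
Summed tags of peaks in consecutive windows of chromosome 1, by list, against the distance of the window's start from the segment's start in Mb; the coloured bar is the segment. It is the tallest bar in each panel, narrowly so in EGR1 DMSO (50 against 48).

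The bounds at 39 and 43 Mb did not coincide with the end of the pattern on the upper side. In TET2 OPA1 the next peaks above 43 Mb were 3 peaks in ST3GAL3, a sialyltransferase gene. They held 49 tags over 733 bp, 124 over 1828 bp and 19 over 438 bp, with folds of 3.59 to 4.76 and quotients of 1.86, 1.53 and 0.911. The next peaks above in the other lists were of the usual size. EGR1 DMSO had 12 tags over 239 bp at 43291739, EGR1 OPA1 10 over 209 bp at 46020521 and TET2 DMSO 11 over 224 bp at 47099373. Below 39 Mb the nearest peaks held 8, 8, 12 and 9 tags in EGR1 DMSO, EGR1 OPA1, TET2 DMSO and TET2 OPA1. They began at 37646687, 38180970, 33433672 and 37845931. Several of these peaks lay Mb away from the bounds, so they do not show where the pattern ends in their lists. The members nearest to the bounds were the MACF1 peak with 8 tags and the SLC2A1 peak with 32.

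Positions recurred between lists more often in the segment than in the rest of chromosome 1. Merging overlapping peaks (at least 1 bp) gave 15 segment regions, of which 4 (26.7%, 10.9 to 51.95%) were in 2 or more lists. In the rest of the chromosome 17 of 343 regions were (4.96%, 3.12 to 7.79%). The 4 were the BMP8A site and the site beyond BMP8B, each in 3 lists, and the positions in HIVEP3, each in both TET2 lists. Only 1 region of the rest was in 3 lists. Between the TET2 lists, the 4 shared regions were 50% of the 8 DMSO and 44.4% of the 9 OPA1 peaks, against 17 (19.8% of 86 and 9.39% of 181) in the rest. The EGR1 lists shared no segment position, and they also shared 0 of 94 regions in the rest of chromosome 1. Recurrence was part of how the segment was chosen. Segment peaks were also longer, and lists of 1 treatment share an input; the part of either in the recurrence was not tested.

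**Figure D5:**
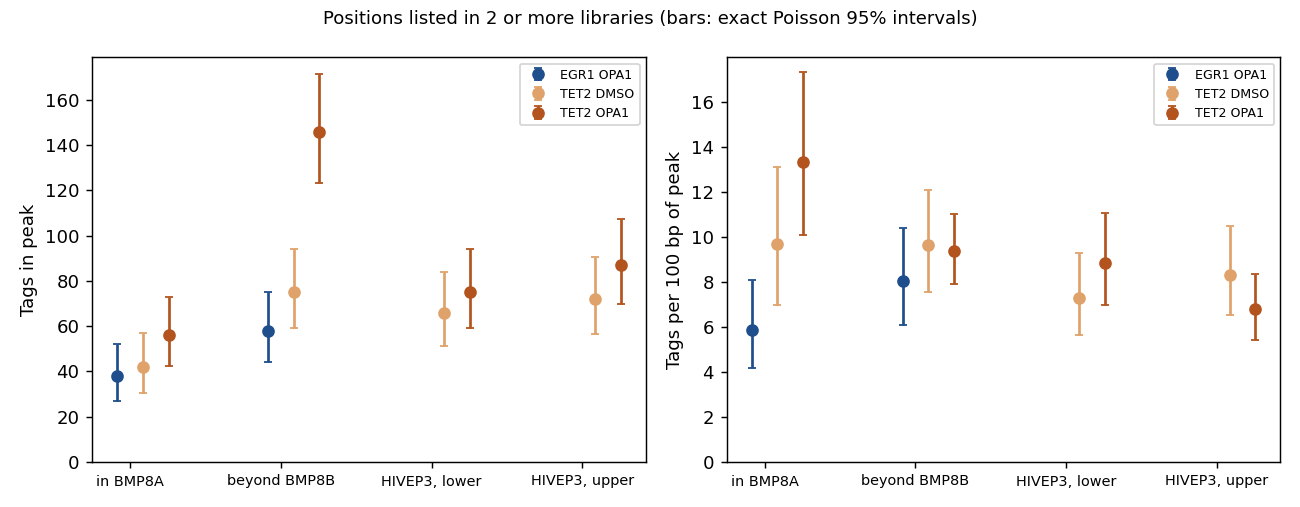
Tags (left) and tags per 100 bp (right) at the 4 positions listed in 2 or more libraries, with exact Poisson 95% intervals of counting error. Only the TET2 OPA1 tags beyond BMP8B (146) stand clear of the other lists, and per 100 bp that site has 9.35 against 9.62 in TET2 DMSO.

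By gene, a peak centre in the body or within 5000 bp marked 1 of the 53 protein-coding genes of the segment in EGR1 DMSO (HIVEP3), where 1.27% of all 20033 protein-coding genes were marked. In EGR1 OPA1 it marked 2 (BMP8A and TRIT1), against 1.3% of all genes. In TET2 DMSO it marked 4 (MACF1, BMP8A, HIVEP3 and SLC2A1), against 2.47%. In TET2 OPA1 it marked 3 (BMP8A, CITED4 and HIVEP3), against 4.65%. Since the segment was chosen by its peaks, nothing is read from these counts. Of the 21 peaks, 16 had a protein-coding gene at their centre or 5000 bp or less away.

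Of 50 genes of the BMP pathway, peaks marked a few beyond BMP8A. EGR1 DMSO marked none, EGR1 OPA1 2 (4%), TET2 DMSO 1 (2%) and TET2 OPA1 5 (10%). The background for the same lists is 1.27%, 1.3%, 2.47% and 4.65% of all protein-coding genes. BMP8A, whose segment was chosen by its peaks, is part of each count above 0. It was the only gene counted in TET2 DMSO, and BMPR1B was the only other in EGR1 OPA1. Nothing is therefore read from these counts. Among 14 ligands, BMP6, which regulates iron balance, had 8 tags over 212 bp in TET2 OPA1, and BMP8A was the other. Of 8 receptors, BMPR1B, a type I receptor, had 8 tags in EGR1 OPA1 and 9 in TET2 OPA1, at positions that did not overlap. Of 6 SMADs, SMAD7, which inhibits signalling, had 18 tags (10.7 to 28.4) in TET2 OPA1 with a fold of 23.3. Of 15 inhibitors and modulators, BMPER, a secreted BMP-binding protein, had 11 tags in TET2 OPA1, and none of 7 target genes had a peak. False discovery rates in TET2 OPA1 were 5.55% for BMP6, 4.92% for BMPR1B, 0% for SMAD7 and 4.2% for BMPER. For BMPR1B in EGR1 OPA1 the rate was 22.3%. In each list, 8 tags was also the smallest number among chromosome 1 peaks outside the segment.

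The density of these pathway peaks was 3.77 tags per 100 bp in BMP6, 3.94 and 3.81 in BMPR1B, 6.25 in SMAD7 and 5.42 in BMPER, and their quotients of density and fold were 0.268 to 0.497. The BMP8A peaks had quotients of 1.04 in EGR1 OPA1, and for TET2 1.73 in DMSO and 1.36 in OPA1. Their densities, given above, were 5.87, 9.68 and 13.3, so that SMAD7 in TET2 OPA1 lay above BMP8A in EGR1 OPA1.

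Outside the segment 17 protein-coding genes were marked, like BMP8A, in EGR1 OPA1 and both TET2 lists and not in EGR1 DMSO. The 8 with the most tags summed over the 3 lists were UBASH3B, EGFLAM, SIGLEC9, SLC38A1, ACOXL, ST3GAL1, RGS6 and BCAR3. They held 8 to 22 tags in EGR1 OPA1, and for TET2 9 to 24 in DMSO and 23 to 63 in OPA1, where BMP8A held 38, 42 and 56. In TET2 OPA1 the tags of UBASH3B (63), EGFLAM, SIGLEC9 and ACOXL were sums over 2 peaks each, and those of RGS6 over 3. BMP8A had 1 peak there. The highest quotients of density and fold among the 8 were 1.05 for ST3GAL1 in EGR1 OPA1, 1.28 for SLC38A1 in TET2 DMSO and 0.683 for UBASH3B in TET2 OPA1. No such gene could be named for BMP8B, which had no peak within 5000 bp.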

How the data were processed

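ChIP-seq peak lists were used for 4 libraries, 1 per antibody and treatment; the 2 inputs entered through the peak calls alone. Per the file headers, the authors called peaks on single libraries with MACS 1.4.2 (p cutoff 1e-05, 1 tag kept per position, local background over 1000 and 10000 bp). The submitters' processing notes name Bowtie2 2.2.6, HOMER and GRCh38. The deposited tag count of each peak is a raw number. The deposited score is the caller's p as a negative log10, multiplied by 10, the deposited fold is a ratio over local background, and the deposited false discovery rate is a percent.

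Peaks overlapping 39 to 43 Mb of chromosome 1 were taken in Python 3.11.15. Computed from them were tags per 100 bp, that density divided by fold, ranks, counts per 4 Mb, regions merged over lists (1 bp), genes within 5000 bp (RefSeq, 59675 genes) and promoter matches (Biopython 1.88). Poisson and Wilson 95% intervals cover counting error only. Overlap and gene assignment were tested on simulated data. With 1 library per group no test was made. The members and gene lists were chosen with earlier results of these data known. Named were BMP8A, BMP8B and MYCL, and every protein-coding gene at or nearest to a segment peak. Also named were BMP pathway genes with a peak, up to 8 genes with the list pattern of BMP8A, and the 3 next windows. ST3GAL3 lies outside this rule and was named after its values were seen. LOC130932201 and LINC02811 are also outside it. Other genes near segment peaks that do not code for protein were left out, such as TRK-CTT12-1 within 5000 bp of the EGR1 OPA1 peak in BMP8A. Alternatives covered false discovery rate, score, fold, bounds, overlap and distance.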

Additional observations from a re-analysis of the deposited data

Results flagged for a closer look

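For 3 summaries of the segment, OPA1 minus DMSO had opposite signs with the antibodies, each from 1 library per group, and the difference between antibodies was not tested. The median tags of segment peaks changed by 8 with EGR1 and by -0.5 with TET2, whose medians of 56.5 and 56 are nearly equal. The median fold changed by 0.88 with EGR1 and by -0.625 with TET2. These medians are over different peaks. At positions in both TET2 lists, fold went from 5.59 in DMSO to 9.80 in OPA1 at BMP8A and from 7 to 10.04 beyond BMP8B. It went from 6.5 to 5.33 and from 6.17 to 5.71 in HIVEP3. The ratio of peaks per Mb in the segment to the rest of chromosome 1 changed by 3.74 with EGR1 and by -2.65 with TET2. With TET2 the segment had 2 peaks per Mb in DMSO and 2.25 in OPA1, and the rest 0.351 and 0.739. The lower TET2 ratio thus comes from the rest of the chromosome. With EGR1 the segment had 0.25 and 0.75, and the rest 0.229 and 0.155. With bounds of 40 to 42 Mb both signs of the change in this ratio turned: the ratio was 2.205 in DMSO and 0 in OPA1 with EGR1, and 4.07 and 4.72 with TET2. The EGR1 values compare 1 peak with 3, and none of those peaks shared a position. The EGR1 lists shared no position in the rest of chromosome 1 either.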

How the results depend on the processing

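Of 71 values recomputed with other limits, bounds and distances, 50 stayed within 1.5 times (counts) or within the interval or range of the main value, 19 did not, and 2 changed direction. Segment peaks in EGR1 DMSO, EGR1 OPA1, TET2 DMSO and TET2 OPA1 (1, 3, 8 and 9) became 0, 0, 1 and 2 at a fold of at least 8. At a false discovery rate of at most 5% EGR1 kept 0 and 0 and TET2 DMSO 3, or 37.5% of its segment peaks. In the rest of chromosome 1 that limit kept 0% in both EGR1 lists and 22.1% in TET2 DMSO. At a score of at least 60 EGR1 DMSO had 0 and TET2 4 and 4. Bounds of 38 to 44 Mb gave EGR1 DMSO 2, and 40 to 42 Mb gave EGR1 OPA1 0 and TET2 DMSO 3. The ratio of peaks per Mb to the rest of the chromosome was 1.09 in EGR1 DMSO and 4.83 in EGR1 OPA1 as deposited. It turned from above 1 to 0 in EGR1 DMSO at a score of at least 60 and in EGR1 OPA1 at 40 to 42 Mb, and was 15.3 in EGR1 OPA1 at a score of at least 60. Within 50000 bp, marked segment genes were 6 in EGR1 OPA1, and for TET2 8 in DMSO and 10 in OPA1, and marked BMP pathway genes for TET2 3 in DMSO and 8 in OPA1. The fold limit removes most segment peaks because their folds are low; the cause of the other shifts was not tested. Medians of density and of its quotient with fold stayed in range with the mean or with other chromosomes as the rest. The 5% limit left no EGR1 peak on chromosome 1, so it gave no EGR1 density. No paired analysis was possible because each group had 1 library.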

Other observations

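Quotients of tag density and fold of at least 1, a limit set after the values were seen, occurred in 4 peaks of EGR1 DMSO, 9 of EGR1 OPA1, 14 of TET2 DMSO and 26 of TET2 OPA1 over all contigs. The segment held 1, 3, 6 and 8 of these. Peaks of at least 600 bp, also a limit set after the values were seen, numbered 2, 4, 6 and 20 in the same order, and the segment held 1, 3, 5 and 6 of them. Outside the segment, peaks with such quotients were 94 to 107 bp long in EGR1 DMSO, 103 to 536 bp in EGR1 OPA1, 89 to 436 bp in TET2 DMSO and 106 to 1828 bp in TET2 OPA1. Segment peaks with a quotient of at least 1 were 420 bp or longer in all 4 lists. Peaks elsewhere with such quotients reached that length in EGR1 OPA1 and both TET2 lists, but not in EGR1 DMSO. In EGR1 OPA1 all of them were shorter than the shortest segment peak, 647 bp. The 1828 bp peak of TET2 OPA1 lies in ST3GAL3, just above the segment.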
